A study of Mus musculus with 18 samples.

Results

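Regulatory T cells restrain immune responses through secreted proteins, surface enzymes and glycan-binding proteins, and 8 genes that encode such mediators were followed here: Il10, Fgl2, Ebi3, Entpd1, Nt5e, Lgals1, Lgals3 and Areg. They were chosen by name for their function, with earlier results of these data known. Each of them has a row among the 15402 genes of the deposited table. RNA had been sequenced from 6 populations of CD4+ T cells, sorted from draining lymph nodes 5 days after 3% oxazolone had been put on the abdominal skin. The mice were female, of strain C57/BL6, and all carried the Foxp3Timer and Foxp3-IRES-GFP reporters, so that no population comes from reporter-free or unsensitised mice. Timer is a fluorescent protein driven by Foxp3 transcription whose blue form is short-lived and matures into a longer-lived red form. Timer-negative, GFP-negative cells were taken as CD44lo (Tnaive) and CD44hi (Teff) cells. GFP-positive Timer+ cells were split by their blue and red signal. Pers1 had intermediate blue with little red, Pers2 had much of both, PAt had little blue with much red, and Arrested had no blue with intermediate red. Pers1 and Pers2, the cells with persistent Foxp3 transcription, are called the Pers pair here, and the other gates the PAt/Arrested pair. The sample labels call these 4 gates de novo, maturing, mature and decaying expressers. Each population has 3 libraries, each from a pool of mice, which makes 18 libraries. All levels below are log2 of normalised counts as deposited, in which a step of 1 is a doubling.

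The members act by different routes. Il10 encodes interleukin-10, a cytokine that quietens antigen-presenting cells, and Ebi3 encodes the chain that interleukin-27 and interleukin-35 share. Fgl2 encodes a secreted fibrinogen-like protein and Areg the growth factor amphiregulin, which regulatory T cells use in tissue repair. Entpd1 (CD39) removes phosphates from extracellular ATP and Nt5e (CD73) turns the resulting AMP into adenosine, which dampens T cells through adenosine receptors. Lgals1 and Lgals3 encode galectins, proteins that bind galactose-bearing glycans on other cells.

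The mean log2 value was at least 3 for all 8 genes, and all were therefore among the 13190 genes that were tested. A single limma model was fitted to the 18 libraries, and a gene was called at a Benjamini-Hochberg adjusted p under 0.05 over all tested genes together with an absolute log2 difference over 1. Foxp3 itself lay between 14.36 and 14.85 in the 12 Timer+ libraries and between 10.38 and 11.38 in the 6 Timer-negative libraries. The T-cell marker list (Cd3e, Cd3d, Cd4, Cd5) had a summed level, as log2, from 16.09 to 16.62 in the 18 libraries. The Teff libraries differed from the Tnaive libraries in transcripts of other cells. Called higher in Teff were 4 of 5 dendritic cell, 5 of 5 B-cell and 3 of 5 tested macrophage or monocyte markers. The summed dendritic cell markers, as log2, ran from 11.20 to 11.74 in Teff and from 6.71 to 7.27 in the other 15 libraries. Cd14 had means of 0.46 to 0.55 in the 6 populations. B-cell markers also differed within the Timer+ cells, at 11.22 to 11.83 in PAt and Arrested against 10.47 to 10.74 in Pers1 and Pers2 libraries. Summed B-cell markers were 11.48 to 12.15 in Teff libraries, which overlapped PAt and Arrested libraries, and 9.48 to 9.90 in Tnaive libraries. None of the 5 B-cell markers was called between the PAt/Arrested pair and Teff cells. Members of the 8, Fgl2, Ebi3, Entpd1, Lgals1 and Lgals3 among them, are known to be expressed by myeloid or B cells as well. The part of such cells in the values of any of the 8 was not tested. Of the remaining lists, 1 of 2 CD8 T cell and 2 of 3 plasma cell markers were called higher in Teff than in Tnaive cells. So was 1 of 3 tested stromal or endothelial markers. Of 4 NK cell markers, 2 were called higher and 1 lower. Of 4 regulatory T cell markers, Ikzf2 and Il2ra were called higher in Teff, Ikzf4 was called lower and Foxp3 was not called. No T cell marker was called. Between Pers1 and Pers2 on one side and PAt and Arrested on the other, 1 CD8 T cell marker (Cd8a) and 3 of 5 B-cell markers were called lower, 1 macrophage or monocyte marker was called higher, and none of the dendritic, NK, plasma, stromal, T or regulatory T cell markers was called. In bulk libraries, fewer expressing cells and less RNA per cell cannot be told apart.

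**Figure D1:**
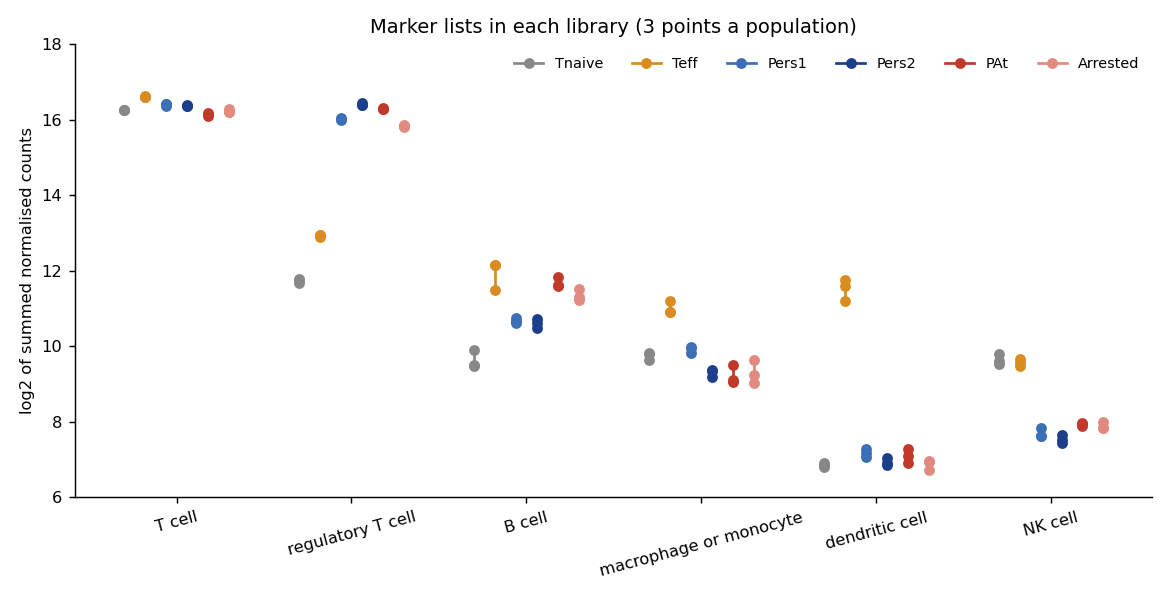
Summed levels of 6 marker lists in each library, on a log2 axis of normalised counts, with 3 points for each population. The dendritic cell list reaches 11.20 to 11.74 in Teff libraries and at most 7.27 elsewhere, while the regulatory T cell list is at 15.81 or more in every Timer+ library.

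Each of the 8 mediators was lowest in Tnaive cells, and 6 of them (Il10, Fgl2, Ebi3, Entpd1, Nt5e and Areg) were highest in Pers2, whereas Lgals1 and Lgals3 were highest in Pers1. The means of Nt5e in Pers2 and PAt and of Lgals3 in Pers1 and Pers2 did not differ beyond their spread (adjusted p = 0.88 and 0.13). Between the Pers pair and the PAt/Arrested pair, 4 of the 8 were called higher (Lgals3, Il10, Lgals1 and Fgl2), where 4.74% of all tested genes were, and none lower, where 2.77% were. The median log2 difference of the 8 was 1.46, against -0.01 over all tested genes. Against Teff cells, all 8 were called higher in the Pers pair, with 4.28% of all genes, by a median of 1.78. Relative to Tnaive cells, all 8 were called higher both in the Pers pair (10.6% of all genes) and in the PAt/Arrested pair (6.63% of all genes). Between Teff and Tnaive cells, 7 of 8 were called higher (8.88% of all genes), and the exception was Areg. Between the PAt/Arrested pair and Teff cells, 2 of the 8, Entpd1 and Areg, were called higher in the pair (2.84% of all genes) and 1, Lgals3, was called lower (4.04% of all genes). Short of the fold threshold there, Nt5e differed by 0.99 (adjusted p = 1.8e-12), Fgl2 by 0.56 (adjusted p = 6.9e-05), Ebi3 by 0.30 (adjusted p = 0.046) and Lgals1 by -0.85 (adjusted p = 9.1e-12). By the adjusted p alone, 7 of the 8 were under 0.05 in this comparison, as 52.7% of all genes were, and 7 of the 8 between the Pers pair and the PAt/Arrested pair, as 70.9% of all genes were.

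**Figure D2:**
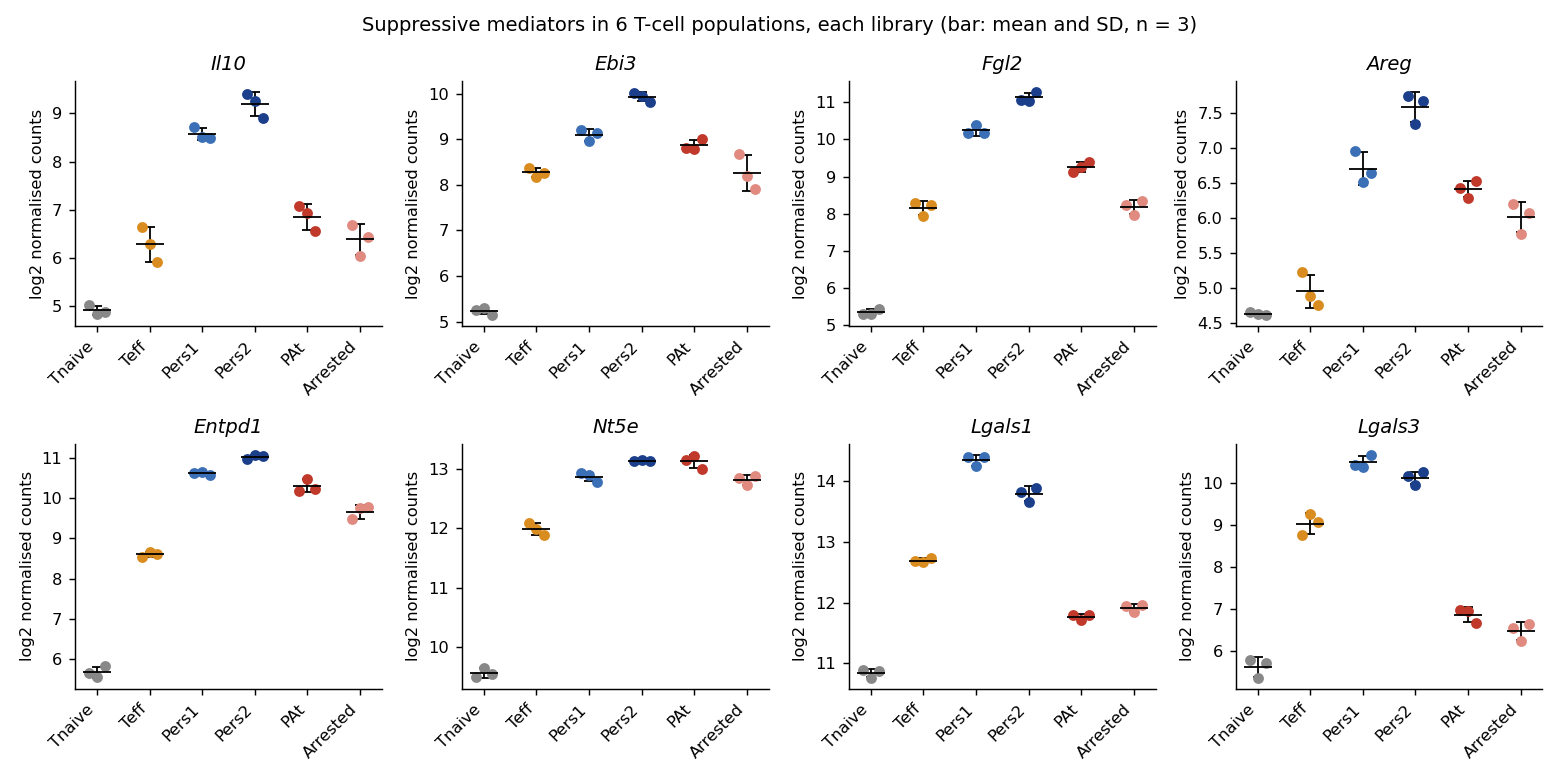
Log2 normalised counts of the 8 mediators, 1 panel a gene, with 1 point a library in each of the 6 populations and a bar for the mean and SD (n = 3). Il10, Ebi3, Fgl2 and Areg peak in Pers2, Nt5e lies between 12.72 and 13.21 in the 4 Timer+ populations, and Lgals1 and Lgals3 peak in Pers1 and sit lower in PAt and Arrested than in Teff libraries.

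Il10 (ENSMUSG00000016529.5, chromosome 1, 131019845 to 131024974 in GRCm38 by GENCODE vM21, plus strand) read 8.71, 8.51 and 8.50 in the 3 Pers1 libraries and 9.41, 9.25 and 8.91 in Pers2. It read 7.08, 6.94 and 6.56 in PAt and 6.68, 6.04 and 6.44 in Arrested libraries. In Teff it was 6.65, 6.30 and 5.92, and in Tnaive 5.03, 4.84 and 4.89. The 6 libraries of the Pers pair lay above all others, while PAt, Arrested and Teff libraries overlapped. Il10 was higher in the Pers pair than in the PAt/Arrested pair by 2.26 (standard error, SE, 0.13, adjusted p = 2e-12), or 4.79-fold, and higher than in Teff cells by 2.60 (SE 0.16, adjusted p = 9.6e-12). The PAt/Arrested pair exceeded Teff cells by 0.34 (95% interval 0.01 to 0.67, adjusted p = 0.082, or 0.021 with the replicate block), under the fold threshold in both fits. Over Tnaive cells, it was higher by 1.70 (SE 0.16, adjusted p = 1e-08).

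Ebi3 (ENSMUSG00000003206.7, chromosome 17, 55952640 to 55957022, plus strand) was 9.19, 8.95 and 9.14 in Pers1 and 10.02, 9.95 and 9.82 in Pers2 libraries. Levels were 8.81, 8.79 and 9.01 in PAt and 8.68, 8.19 and 7.90 in Arrested libraries, the widest spread of this gene. Teff libraries had 8.36, 8.17 and 8.26, and Tnaive libraries 5.25, 5.29 and 5.14. Pers2 stood clear of every other population, Pers1 and PAt overlapped (difference 0.22, 95% interval -0.07 to 0.52, adjusted p = 0.17), and Teff and Arrested cells differed by 0.01 (95% interval -0.29 to 0.30). The difference of the Pers pair from the PAt/Arrested pair was 0.95 (SE 0.10, adjusted p = 3.1e-08), just under the threshold of 1, and it was 1.05 without Arrested replicate 1. Teff cells already exceeded Tnaive cells by 3.04 (SE 0.14, adjusted p = 7.9e-14), or 8.22-fold. Gm16712, an antisense transcript on the other strand over 2252 bases of Ebi3, followed the same order at its extremes, with a mean of 9.20 in Pers2 and 6.49 in Tnaive cells. The kit marks strand, but whether reads were counted by strand is not given in the sources used here, so reads of the 2 genes may be mixed. The partner chain of interleukin-35, Il12a, had a mean log2 value under 3 and was not tested.

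Fgl2 (ENSMUSG00000039899.5, chromosome 5, 21372642 to 21378374, plus strand) was 10.16, 10.40 and 10.17 in Pers1 and 11.07, 11.04 and 11.27 in Pers2 libraries. It was 9.13, 9.26 and 9.38 in PAt and 8.23, 7.97 and 8.34 in Arrested libraries. Teff libraries read 8.28, 7.95 and 8.23 and Tnaive libraries 5.30, 5.30 and 5.44. The 4 Timer+ populations did not overlap at all, and the step from each to the next was 0.88 (Pers2 over Pers1), 0.99 (Pers1 over PAt) and 1.07 (PAt over Arrested), with adjusted p-values of 4.2e-05, 2.4e-07 and 8.8e-06. Arrested and Teff cells differed by 0.03 (95% interval -0.21 to 0.27, adjusted p = 0.88). Against Tnaive, the Pers pair was higher by 5.34 (SE 0.10, adjusted p = 6.9e-21), or 40.4-fold, and Teff cells by 2.81 (SE 0.12, adjusted p = 1.1e-14). Fgl2 lies wholly within Ccdc146 of the other strand, whose mean levels were 3.54 to 3.88 in the 6 populations.

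Areg (ENSMUSG00000029378.5, chromosome 5, 91139599 to 91148432, plus strand) had 6.95, 6.51 and 6.64 in Pers1 and 7.73, 7.34 and 7.67 in Pers2 libraries. PAt libraries had 6.42, 6.28 and 6.52 and Arrested libraries 6.20, 5.77 and 6.06. In Teff it was 5.22, 4.89 and 4.75, and in Tnaive 4.65, 4.63 and 4.61. All 12 Timer+ libraries were above all 6 Timer-negative libraries, and only the Pers1 and PAt libraries overlapped among neighbours in the order of levels. The Pers pair were higher than Teff cells by 2.19 (SE 0.13, adjusted p = 3.4e-12), and the PAt/Arrested pair by 1.26 (SE 0.13, adjusted p = 3e-08). Teff exceeded Tnaive cells by 0.32 (95% interval 0.02 to 0.63, adjusted p = 0.061, or 0.023 with the replicate block), under the fold threshold in both fits. The transform of the deposited values is not named in the sources used here. A regularised log would draw differences of genes with few reads towards 0. If it was used, the differences of Areg may be understated, as may the steps of other members from their low Tnaive levels.

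The sequences before the RefSeq start sites of Fgl2, Areg and Lgals3 are shown. Fgl2 and Lgals3 were called between the Pers pair and the PAt/Arrested pair. Areg differed between Timer+ and Timer-negative cells, as did Entpd1 and Nt5e, whose sequences are not shown. Each shown sequence is the 250 bases before the start site (GRCm38.p6, plus strand). Capitals mark matches to 7 motifs that were searched on both strands. The window of Lgals3 lies inside the GENCODE gene, which starts at 47367751. The GENCODE gene of Fgl2 starts at 21372642, inside its window, so that the AP-1 match given below lies within the gene.
Fgl2, chr5:21372423-21372672: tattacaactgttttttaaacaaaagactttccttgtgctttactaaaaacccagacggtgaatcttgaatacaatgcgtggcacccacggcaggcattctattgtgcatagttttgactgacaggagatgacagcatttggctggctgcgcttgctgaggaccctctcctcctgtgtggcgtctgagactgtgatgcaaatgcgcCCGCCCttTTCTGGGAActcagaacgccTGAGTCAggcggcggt
Areg, chr5:91139349-91139598: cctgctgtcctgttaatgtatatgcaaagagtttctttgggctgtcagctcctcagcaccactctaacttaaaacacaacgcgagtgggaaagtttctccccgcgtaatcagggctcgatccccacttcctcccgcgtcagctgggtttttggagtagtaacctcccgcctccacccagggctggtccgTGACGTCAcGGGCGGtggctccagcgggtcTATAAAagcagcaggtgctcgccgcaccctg
Lgals3, chr14:47373610-47373859: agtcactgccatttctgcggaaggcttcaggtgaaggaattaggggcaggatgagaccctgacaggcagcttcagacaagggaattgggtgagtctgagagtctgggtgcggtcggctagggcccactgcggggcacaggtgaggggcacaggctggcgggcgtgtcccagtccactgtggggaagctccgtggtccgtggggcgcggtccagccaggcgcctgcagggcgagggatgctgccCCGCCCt
The Fgl2 window holds an AP-1 match (TGANTCA, as TGAGTCA) from -16 to -10, a STAT match (TTCNNNGAA, as TTCTGGGAA) from -36 to -28 and a GC-box (GGGCGG, here on the other strand) from -44 to -39, where -1 is the base before the start. Areg holds a cAMP response element (TGACGTCA) from -61 to -54, a GC-box from -52 to -47 and a TATA match (TATAAA) from -31 to -26, and Lgals3 holds only a GC-box from -7 to -2. Among 32851 promoters of the same length, 6.75% held the AP-1, 7.02% the STAT, 1.55% the cAMP response element, 12.4% the TATA and 32.7% the GC-box letters. The table matched 6 of the 8 members with 7 start sites, since Entpd1 has 2. The AP-1, STAT, cAMP response element and TATA letters were each held by 1 of the 7, and the GC-box letters by 4. None of the 7 held the forkhead (TGTTTAC) or IRF letters, which 3.17% and 2.98% of all promoters held. A match is a description of letters and not of binding.

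The purine enzymes differed from each other within the Timer+ cells. Entpd1 (ENSMUSG00000048120.16, chromosome 19, 40612366 to 40741602, plus strand) was 10.61, 10.65 and 10.57 in Pers1 and 10.96, 11.06 and 11.04 in Pers2 libraries. It was 10.18, 10.48 and 10.23 in PAt and 9.47, 9.76 and 9.77 in Arrested libraries. Teff libraries had 8.54, 8.65 and 8.61 and Tnaive libraries 5.65, 5.56 and 5.83. No library of any population overlapped a neighbour in this order, and every neighbouring pair had an adjusted p of 0.0084 or lower. Its annotation overlaps 3 other genes of the same strand, none of which has a row in the table. The Pers pair exceeded the PAt/Arrested pair by 0.83 (SE 0.07, adjusted p = 5.8e-10), under the threshold, and Teff cells by 2.22 (SE 0.08, adjusted p = 3.6e-15), or 4.64-fold. The PAt/Arrested pair in turn exceeded Teff cells by 1.38 (SE 0.08, adjusted p = 9e-12).

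Nt5e (ENSMUSG00000032420.8, chromosome 9, 88327197 to 88372092, plus strand) read 12.92, 12.89 and 12.78 in Pers1 and 13.13, 13.14 and 13.13 in Pers2 libraries. It was 13.15, 13.21 and 13.00 in PAt and 12.84, 12.72 and 12.87 in Arrested libraries. Teff libraries read 12.08, 11.98 and 11.88 and Tnaive libraries 9.50, 9.65 and 9.55. Pers2 and PAt cells overlapped and differed by 0.01 (95% interval -0.12 to 0.14), as did Pers1 and Arrested cells, by 0.05 (95% interval -0.08 to 0.18). Among the 8 members, Nt5e was the one for which the Pers pair and the PAt/Arrested pair did not differ by the test (0.03, 95% interval -0.06 to 0.12, adjusted p = 0.52). The sign of this small difference turned with the scaling of the libraries, to -0.03 and -0.01. Over Tnaive cells, Nt5e was higher by 3.43 in the Pers pair (10.8-fold), by 3.40 in PAt and Arrested (10.6-fold) and by 2.41 in Teff cells (5.33-fold). The difference of the Pers pair from Teff cells was 1.02 (SE 0.05, adjusted p = 9.4e-13), and it was 0.97 without Teff replicate 3, under the threshold, as it was under either other scaling (0.96 and 0.98).

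The galectins had another order of populations than the other members, with Teff cells above the PAt/Arrested pair. Lgals1 (ENSMUSG00000068220.6, chromosome 15, 78926725 to 78930465, plus strand) was 14.40, 14.24 and 14.39 in Pers1 and 13.82, 13.66 and 13.88 in Pers2 libraries. It was 11.80, 11.72 and 11.79 in PAt and 11.94, 11.84 and 11.96 in Arrested libraries. Teff libraries had 12.69, 12.66 and 12.73 and Tnaive libraries 10.89, 10.76 and 10.87. No populations overlapped, though Arrested and PAt differed by only 0.14 (95% interval 0.02 to 0.27, adjusted p = 0.19). Lgals1 was higher in the Pers pair than in the PAt/Arrested pair by 2.22 (SE 0.04, adjusted p = 1.2e-19), or 4.66-fold, and than in Teff cells by 1.37 (SE 0.05, adjusted p = 3.3e-15). The PAt/Arrested pair lay below Teff cells by a log2 difference of -0.85 (SE 0.05, adjusted p = 9.1e-12), under the threshold. It exceeded Tnaive cells by 1.01 (SE 0.05, adjusted p = 4.2e-13), a call that was lost without Tnaive replicate 2 (0.97), PAt replicate 1, Arrested replicate 1 or Arrested replicate 3 (0.99 or more), and under either other scaling (0.93 and 0.98).

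Lgals3 (ENSMUSG00000050335.17, chromosome 14, 47367751 to 47386160, plus strand) was 10.44, 10.37 and 10.67 in Pers1 and 10.16, 9.96 and 10.26 in Pers2 libraries. It was 6.97, 6.94 and 6.66 in PAt and 6.55, 6.23 and 6.63 in Arrested libraries. Teff libraries had 8.75, 9.25 and 9.08 and Tnaive libraries 5.78, 5.35 and 5.70. It had the widest gap of the 8 between the Pers pair and the PAt/Arrested pair, 3.64 (SE 0.10, adjusted p = 3.7e-17), or 12.5-fold, with all 6 libraries above the other 6. The PAt/Arrested pair lay below Teff cells by a log2 difference of -2.36 (SE 0.13, adjusted p = 1.5e-12). Against Tnaive, that pair was higher by 1.05 (SE 0.13, adjusted p = 5.4e-07), and this call was lost without Tnaive replicate 2 (0.92) and under either other scaling (0.98 and 0.66). Lgals3 is known as a macrophage antigen, and the macrophage or monocyte markers, summed as log2, ran from 9.17 to 9.98 in the Pers pair and from 9.03 to 9.62 in the PAt/Arrested pair, against 10.89 to 11.19 in Teff libraries. Of the 5 tested markers, 1, Itgam, was called higher in the Pers pair. Its means were 6.72 in Arrested, 6.23 in PAt, 8.16 in Pers2, 8.88 in Pers1, 8.33 in Teff and 8.44 in Tnaive cells. The part of macrophages or monocytes in the Lgals3 difference was not tested.

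The step from PAt and Arrested to the Pers pair within the Timer+ cells was set against the step from Tnaive to Teff within the Timer-negative cells. These steps share no library, and the test of their difference was chosen after the values had been seen. The Timer-negative step was larger for Nt5e, by a difference of the steps of -2.38 (SE 0.08, adjusted p = 6.7e-16), for Ebi3, by -2.09 (SE 0.17, adjusted p = 2.2e-09) and for Entpd1, by -2.09 (SE 0.12, adjusted p = 5e-12). These 3 of 8 passed both thresholds in this direction, with 6.9% of all tested genes. The Timer+ step of Il10 was larger by 0.90 (SE 0.22, adjusted p = 0.0023), which missed the threshold of 1 but passed it without Teff replicate 1 (1.08). Fgl2 differed the other way by -0.84 (SE 0.14, adjusted p = 4.8e-05) and Areg by 0.61 (SE 0.18, adjusted p = 0.0074), both under the threshold. Lgals3 stepped up by 3.42 in Timer-negative and by 3.64 in Timer+ cells, and these values differed by 0.23 (95% interval -0.15 to 0.60, adjusted p = 0.32). For Lgals1, the steps were 1.86 and 2.22, with a difference of 0.37 (adjusted p = 0.00028).

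**Figure D3:**
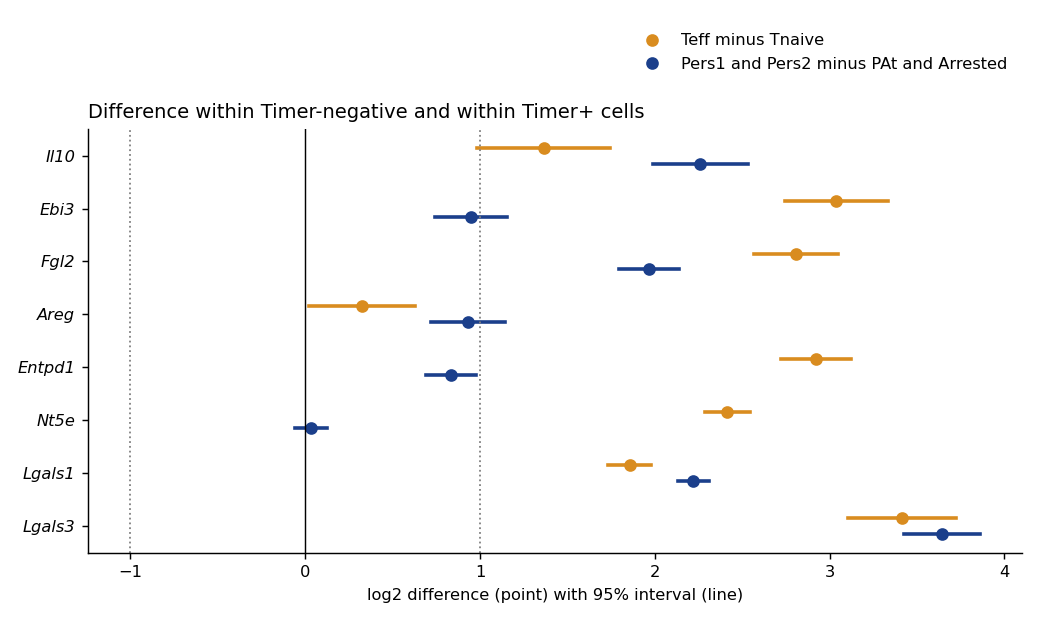
Log2 difference of each mediator between Teff and Tnaive cells and between the Pers pair and the PAt/Arrested pair, with points for the estimate, lines for the 95% interval and dotted lines at the threshold of 1. Nt5e, Ebi3 and Entpd1 have the larger difference in Timer-negative cells, 2.41 against 0.03 for Nt5e, whereas Il10 has 1.36 against 2.26.

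Within each pair of Timer+ populations, the population with more red Timer protein (Pers2 or PAt) was set against the one with less (Pers1 or Arrested). By the gates, Pers2 also had more blue than Pers1, and PAt more than Arrested. Red and blue signal therefore cannot be told apart in these pairs. The 6 genes other than the galectins had higher means in Pers2 than in Pers1 cells, and likewise in PAt than in Arrested cells. The share of all tested genes with the same signs in both pairs was not counted. In the Pers pair, 7 of the 8 members had an adjusted p under 0.05, where 10.6% of all tested genes did, and none reached a difference of 1. Those that were higher in Pers2 were Fgl2 (0.88), Areg (0.88), Ebi3 (0.84), Il10 (0.62), Entpd1 (0.41) and Nt5e (0.27). Lgals1 was lower in Pers2, by a log2 difference of -0.56 (adjusted p = 4.1e-06). Lgals3 also had its lower values in Pers2, at -0.37 (95% interval -0.67 to -0.06, adjusted p = 0.13), and did not pass the test.

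Between PAt and Arrested cells, 4 of the 8 members had an adjusted p under 0.05, where 5.04% of all genes did. PAt cells exceeded Arrested cells in Fgl2 by 1.07 (adjusted p = 8.8e-06), in Entpd1 by 0.63 (adjusted p = 0.00041), in Ebi3 by 0.61 (adjusted p = 0.013) and in Nt5e by 0.31 (adjusted p = 0.005). Fgl2 was the one member past both thresholds, with 0.121% of all genes called in either direction, and without Arrested replicate 2 its difference fell to 0.97. Values for the others were 0.48 for Il10, 0.40 for Areg and 0.39 for Lgals3 (PAt minus Arrested), with adjusted p-values of 0.16, 0.13 and 0.16. Lgals1 was the member with the other sign, at -0.14 (adjusted p = 0.19). With the replicate number as a block in the model, 7 of the 8 had an adjusted p under 0.05, where 7.09% of all genes did, since Il10 (adjusted p = 0.039), Areg (0.045) and Lgals1 (0.036) then passed. The differences of the 2 pairs from each other were tested in the same model, a test that was not among those planned. Lgals1 had an adjusted p of 0.021, with a difference of -0.41 (95% interval -0.59 to -0.24), and 0.766% of all genes had one under 0.05. For Lgals3 the value was -0.75 (95% interval -1.19 to -0.32, adjusted p = 0.11), and for Fgl2 -0.19 (95% interval -0.53 to 0.15, adjusted p = 0.7).

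**Figure D4:**
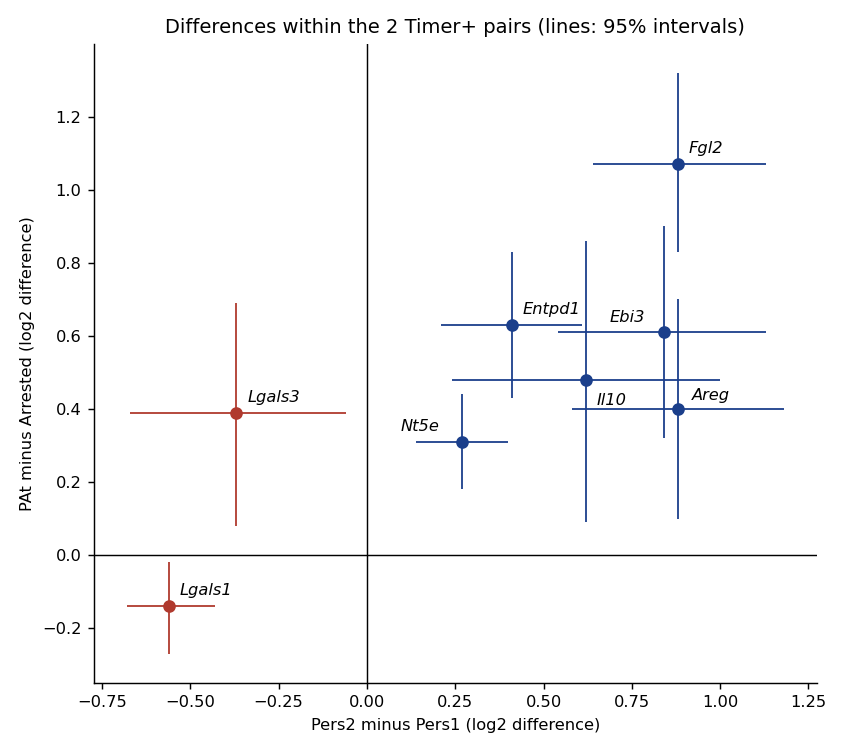
Difference of Pers2 from Pers1 (horizontal) and of PAt from Arrested (vertical) for the 8 mediators, in log2, with 95% intervals as lines. The 6 genes in blue lie in the upper right, from Nt5e (0.27 and 0.31) to Fgl2 (0.88 and 1.07), and the galectins in red lie left of 0.

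Genes that work with the mediators were taken from a list of 47 partners, of which 41 have a row and 37 were tested. Between the Pers pair and the PAt/Arrested pair, 10 of the 37 were called higher (4.74% of all genes) and 1 lower (2.77% of all genes), and their median difference was 0.29, against -0.01 over all genes. Of these 10, 7 are among the 10 transcription factors known to act on Il10: Prdm1, Maf, Ahr, Nfil3, Irf4, Ikzf3 and Batf. The highest were Prdm1 (Blimp-1), which was 2.97 higher (SE 0.06, adjusted p = 1.3e-19), and Maf, which was 2.19 higher (SE 0.07, adjusted p = 1.3e-16). The other regulators were not called: Gata3 differed by 0.53 (adjusted p = 1.5e-07) and Stat3 by -0.09 (adjusted p = 0.013), both under the fold threshold, and Bhlhe40 by -0.18 (adjusted p = 0.44). Prdm1 was 12.45, 12.36 and 12.29 in Pers1 and 12.66, 12.40 and 12.54 in Pers2 libraries. It was 9.54, 9.40 and 9.76 in PAt and 9.44, 9.34 and 9.43 in Arrested libraries and 8.78 to 8.86 in the 6 Timer-negative libraries. Between Teff and Tnaive cells it differed by 0.06 (SE 0.08, adjusted p = 0.58), whereas Maf was higher in Teff cells by 5.47 (SE 0.10, adjusted p = 1.7e-20). In that comparison, too, 7 of the 10 regulators were called higher (8.88% of all genes): Maf, Bhlhe40, Irf4, Ahr, Nfil3, Gata3 and Batf. Between the Pers pair and Teff cells, 4 of the 10 were called higher (4.28% of all genes): Prdm1, Nfil3, Ahr and Ikzf3.

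Of the receptors, Il10ra, the ligand-binding chain of the interleukin-10 receptor, was called higher in the Pers pair (1.19, adjusted p = 1.1e-15), and the shared chain Il10rb was lower by a log2 difference of -0.46 (adjusted p = 1.1e-09), under the threshold. Il1rl1, the interleukin-33 receptor, is known to drive amphiregulin. Its means had the same order as those of Areg, but also as those of Il10, Fgl2 and Entpd1, and a link to Areg was not tested. The means of Il1rl1 were 5.41 in Tnaive, 8.12 in Teff, 9.50 in Arrested, 10.56 in PAt, 11.19 in Pers1 and 11.79 in Pers2 cells. It was called higher in the Pers pair than in the PAt/Arrested pair (1.46) and in both pairs than in either Timer-negative population, and lower in Arrested than in PAt cells (-1.06). In the purine pathway, P2rx7, a channel that extracellular ATP opens, was the 1 partner called lower in the Pers pair. Its difference from the PAt/Arrested pair was -1.46 (SE 0.05, adjusted p = 1.3e-15), with 10.85 to 11.30 in the 6 libraries of the Pers pair and 12.50 to 12.67 in the 6 others. Adora2a, an adenosine receptor of T cells, was 0.54 higher in the Pers pair (adjusted p = 2.8e-08), short of the threshold, and was called higher in Teff than in Tnaive cells (1.76). Of the 5 tested genes among the other galectins and a galectin ligand, Lgals7 was called higher in the Pers pair (1.01). Lgals4, Lgals8, Lgals9 and the ligand Lgals3bp were not called. Whether similar galectin genes share reads was not tested.

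Between Teff and Tnaive cells, 17 of the 37 partners were called higher (8.88% of all genes) and none lower (2.28% of all genes), with a median of 0.64 against 0 over all genes. Between Pers2 and Pers1 cells none of the 37 was called, at 0.19% of all genes, and 1, Il1rl1, was called between Arrested and PAt cells, at 0.121%. Fcgr2b, a receptor for Fgl2 that B cells and myeloid cells are known to carry, was called higher in Teff than in Tnaive cells (1.95, adjusted p = 3.9e-10), together with the B-cell and dendritic cell markers given above, and the part of such cells in it was not tested.

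**Figure D5:**
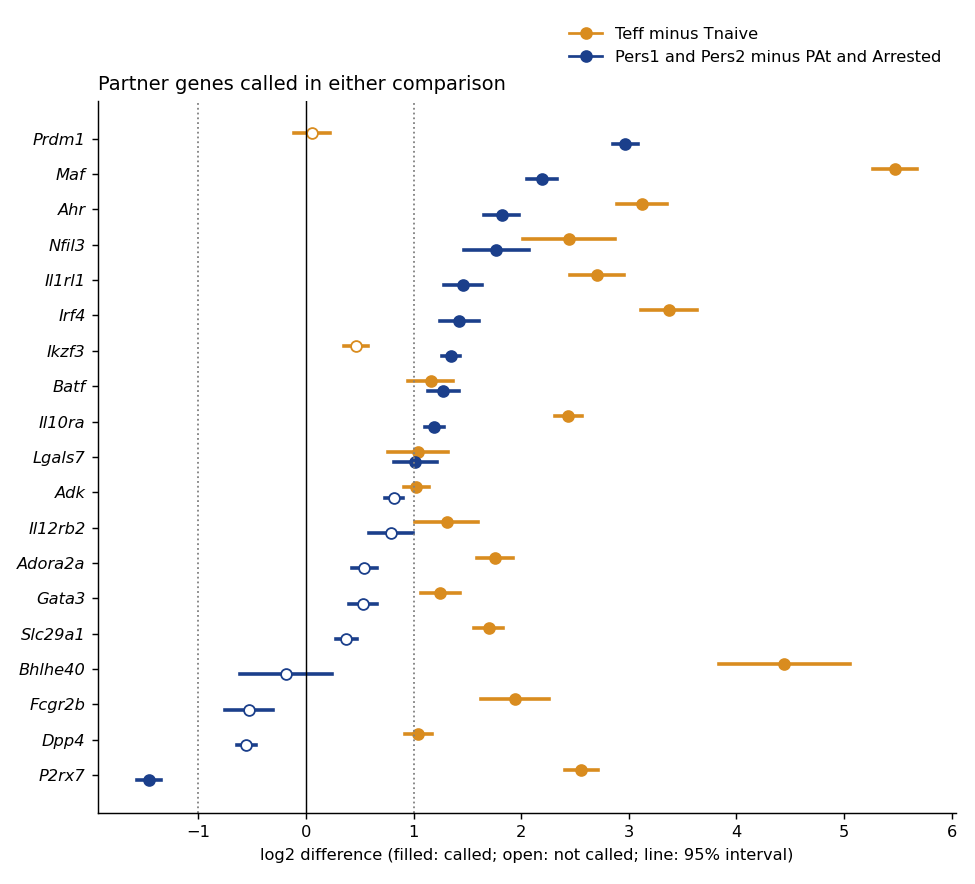
Partner genes called in at least 1 of 2 comparisons, with log2 differences between Teff and Tnaive cells and between the Pers pair and the PAt/Arrested pair. Filled points are called, open points are not, and lines are 95% intervals; Prdm1 is at 0.06 in the former and 2.97 in the latter, and P2rx7 is at 2.56 and -1.46.

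Across the 18 libraries, which form clusters by population, the 8 members were all positively correlated with each other, and the values are given as descriptions. The highest Pearson's r was 0.977, between Entpd1 and Nt5e, followed by 0.971 between Lgals1 and Lgals3, and the lowest was 0.540, between Nt5e and Lgals3. After the mean of its population was taken from every value, these were -0.003, 0.571 and -0.108. The 3 tested genes whose 18 values were most like each member were Asxl1, Twsg1 and Pole for Il10 (r from 0.978 to 0.984), B4galnt4, Ankrd6 and Nfkb2 for Ebi3 (0.988 to 0.992), Itgae, Nrbp2 and Plagl2 for Fgl2 (0.986 to 0.991) and Ccr8, Cd2 and Klrg1 for Areg (0.976 to 0.980). For Entpd1 they were Osbpl3, Myo1e and Plcb3 (0.993 to 0.995), and for Nt5e Ikzf2, Serpina3g and Rgs16 (0.989 to 0.997). Lgals1 was most like Hmgb2, Carhsp1 and Car5b (0.992 to 0.993), and Lgals3 like Snx2, Pdk3 and Adam8 (0.991 to 0.992). Ikzf2 encodes Helios, a transcription factor of regulatory T cells, Itgae the integrin chain CD103, and Hmgb2 a chromatin protein of dividing cells.

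Levels were also set per kilobase of exons (GENCODE vM21), so that genes can be compared with each other. On that log2 scale, the level in Pers1 cells was 14.49 for Lgals1, 9.76 for Nt5e, 9.60 for Lgals3, 8.89 for Ebi3, 8.32 for Fgl2, 8.18 for Il10, 8.13 for Entpd1 and 6.42 for Areg. Lgals1 was the most abundant and Nt5e came next in all 6 populations. In Tnaive cells they were at 10.98 and 6.46, while Entpd1 was the lowest at 3.20.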

How the data were processed

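RNA-seq libraries were made with a stranded mRNA kit from 6 sorted populations (3 libraries each). Per the labels and the study's methods, the authors used CASAVA 1.8.2 and FastQC 0.11.2, aligned paired-end reads to mm10 with TopHat2 2.0.9 and used DESeq2; the counting tool is not given in the sources used here. For 15402 genes the deposited table gives normalised counts as log2 (-0.02 to 18.89), whose shape resembles a regularised log, and these were used as they are. No reads or raw counts were used here. Depth is therefore unknown, and precision rests on the spread between replicates, which may in part be technical.

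The members and lists were chosen with earlier results of these data known. The 13190 genes whose log2 values averaged 3 or more entered limma 3.58.1 in R 4.3.3, 1 term a population over 18 libraries, a trend in the prior variance, Benjamini-Hochberg adjustment, and the study's thresholds (0.05 and 1). The model was tested on simulated data. The rule for named genes was the 8 members, Foxp3, the partners with the 2 highest and 2 lowest called values of a comparison, and the 3 genes most correlated with a member; other partners named were chosen after their values were seen. The marker lists were those of T cells, regulatory T cells, CD8 T cells, B cells, plasma cells, macrophages or monocytes, dendritic cells, NK cells and stromal or endothelial cells. Annotation came from GENCODE vM21 (GRCm38), promoters from RefSeq, and figures from matplotlib 3.10.9 in Python 3.11.15.

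The deposited design has the populations sorted from the same mice, but no source used here states that a replicate number marks 1 pool in all populations. The main model has no block, and values from a model with the replicate number as a block are given where they differ. For 45 same-numbered pairs of libraries, the deviations from population means correlated at a median r of 0.166 (lowest -0.206, highest 0.436, with 32 pairs over 0.1), and for 90 differently numbered pairs at -0.0642. The alternatives tried were other filters, thresholds, scalings, prior variances and sets of libraries, a replicate block, and each library left out.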

Additional observations from a re-analysis of the deposited data

Results flagged for a closer look

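Ebi3, Entpd1 and Nt5e differed between the step from PAt and Arrested to the Pers pair and the step from Tnaive to Teff cells, in the model's test of the difference of the steps: Ebi3 by -2.09, Entpd1 by -2.09 and Nt5e by -2.38 on the log2 scale. Their Tnaive libraries had the lowest values of all 6 populations. The Teff libraries also held the dendritic cell and B-cell transcripts described above, and the PAt and Arrested libraries the B-cell transcripts. The part of these transcripts was not tested.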

How the results depend on the processing

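With no threshold on the fold change, the number of the 8 mediators called rose from 4 to 7 between the Pers pair and the PAt/Arrested pair, from 3 to 7 between PAt and Arrested and Teff cells, from 0 to 7 between Pers2 and Pers1 and from 1 to 4 between Arrested and PAt cells. Without that threshold, 70.9%, 52.7%, 10.6% and 5.04% of all genes were called in these comparisons. With 1 library left out at a time, the number was 0 to 1 between Pers2 and Pers1 (1, Areg, without Pers1 replicate 1) and 0 to 1 between Arrested and PAt (0 without Arrested replicate 2). The other 6 comparisons stayed within 1.5 times their number under every alternative but the threshold. The small difference of Nt5e between the Pers pair and the PAt/Arrested pair turned from 0.03 to -0.0322 with libraries centred on their medians and to -0.0104 with quantile normalisation. The difference of Pers2 minus Pers1 from PAt minus Arrested ran from -0.0065 to 0.3176 for Il10 and from -0.0997 to 0.0058 for Nt5e with 1 library left out, and it turned sign without Arrested replicate 1 (-0.0014) or PAt replicate 3 for Il10 and without PAt replicate 2 (0.0028) or Arrested replicate 2 for Nt5e. With the replicate block, the number of mediators called between the Pers pair and the PAt/Arrested pair was 4, and no mediator's call by both thresholds changed in any comparison. By the adjusted p alone, the block moved the number from 4 to 7 between Arrested and PAt cells and from 7 to 8 between Teff and Tnaive and between the PAt/Arrested pair and Teff cells. Fits without the 3 Teff libraries, an alternative added after the data had been seen, left the calls of the 5 comparisons without Teff as they were. Over single mediators in the 8 comparisons, the other settings, the lack of a fold threshold among them, left 1003 values called or not called as before. Of the rest, 22 were newly called, 13 were no longer called and 2 turned sign. Most of the 22 came from the setting with no fold threshold, where differences under 1 were called by the adjusted p alone. The cause of these moves was not tested. Depth is unknown, so counting error cannot be given.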
